A study of Mus musculus with 6 samples.

Results

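The genes described here are those of the Wnt signalling system: the secreted ligands, the proteins that carry them out of the cell, their receptors and antagonists, and the nuclear factors that answer to them. They were collected by gene symbol, and each gene is represented by 1 transcript cluster, a set of probes for 1 transcribed region, chosen by the highest mean over all arrays. The rule found 62 genes of the 19937 measured. Tcf7, a Tcf factor gene that the rule also names, had no cluster of its own on these arrays and was not analysed here. The group was proposed with the results of these arrays known, Wls being one of the genes already seen to differ, so the values of Wls are given as a description.

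RNA came from primary neurospheres, floating colonies grown from single-cell suspensions of the hippocampus of male C57BL/6J mice aged 8–12 weeks. All cultures received EGF and bFGF, and they differed in the agent added, either 10 µM norepinephrine (N, 3 arrays) or 15 mM potassium chloride (K, 3 arrays), until collection on day 14. The labels call the spheres small, and 2 of the replicates, not named, were also used for sequencing. No untreated cultures are among the arrays, so a value lower with N may equally be called higher with K. The labels call the arrays biological replicates without saying how many mice stood behind each.

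Wnt proteins are lipid-modified signals that act over short distances. Porcupine attaches the lipid, the carrier Wntless (Wls) brings the ligand to the cell surface, and Frizzled receptors with the co-receptors Lrp5 and Lrp6 receive it. In the canonical branch this spares beta-catenin from destruction, and beta-catenin then joins the Tcf and Lef factors on DNA. In the adult hippocampus Wnt signals from astrocytes are known to promote neurogenesis from precursor cells.

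Values are log2 RMA values, which the authors made from the scanned arrays, and log2FC is the mean of N minus the mean of K. Adjusted p-values are from limma, adjusted over all 19937 genes. The arrays had medians between 6.30 and 6.40, and K replicate 3 had the lowest mean correlation with its own group across clusters (r = 0.948, against 0.954 to 0.965 for the other arrays). The mean r of K replicate 2 was 0.969 with the N arrays and 0.954 with the other K arrays, and that of K replicate 1 was 0.955 and 0.954. Without K replicate 2, the log2FC was -1.52 for Wls (adjusted p = 0.0401 from limma) and -0.99 for Tcf7l1 (0.0569). Sox2 and Nes, markers of neural precursors, were measured well above the array medians, Sox2 with means of 10.16 and 9.90 and Nes with 8.24 and 8.76 on the N and K arrays. The mean over 8 precursor markers lay between 9.20 and 9.29 on the N arrays and between 9.17 and 9.30 on the K arrays, with 1 of the 8 higher (Vim) and 1 lower (Nes) with N at an unadjusted P under 0.05. Levels of different clusters depend on their probes, so a higher value of 1 gene than of another does not show more transcript, and brightness served only to choose which further genes are shown array by array.

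Among the 62 genes, Wls and Tcf7l1 were lower with N at an adjusted p under 0.05, and 0 were higher. That is 3.23% of the 62, where 0.155% of all genes passed in either direction and 0.0351% passed as lower with N. As Wls was known to differ when the group was put together, nothing is read from this share, and without Wls the count was 1 of 61. At an unadjusted P under 0.05 in the same fit, 4 genes were lower with N (Wls, Tcf7l1, Lef1 and Fzd4). They were 6.45% of the 62, against 3.89% of all genes, and without Wls the count was 3 of 61. The genes higher with N at that threshold were Nkd1, Sfrp4 and Fzd3, 4.84% of the 62 against 4.64% of all genes, so the share of higher genes was near the background. The N and K arrays did not overlap for 11 genes, 17.7% of the 62 against 13.3% of all genes. Of these, 9 were lower with N, 14.5% of the 62 against 7.55% of all genes. Lower was also the more frequent direction over all genes (1505 of 2657). Without Wls the 9 were 8 of 61, and nothing is read from these shares of lower genes either. Over the 62 genes the median log2FC was -0.06, close to the -0.03 of all genes, and 51 genes had a log2FC under 0.25 in size.

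The promoters of the 4 genes that were lower with N at an unadjusted P under 0.05 are printed here so that the starts of the genes with the clearest differences in that direction can be set side by side. Each window runs from 250 bases before to 50 bases after the start that opens the gene in the RefSeq annotation of GRCm38.p6 and is written 5′ to 3′ on the strand of the gene. Capitals mark matches on either strand to GGGCGG, the GC box.
Wls, chr3:159839400-159839699, plus strand: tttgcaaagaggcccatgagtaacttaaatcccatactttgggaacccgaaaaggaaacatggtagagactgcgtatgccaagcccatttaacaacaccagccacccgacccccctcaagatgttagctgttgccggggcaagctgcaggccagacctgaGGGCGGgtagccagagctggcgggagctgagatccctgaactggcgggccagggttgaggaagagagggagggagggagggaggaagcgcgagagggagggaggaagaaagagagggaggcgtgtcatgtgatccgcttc
Tcf7l1, chr6:72788996-72789295, minus strand: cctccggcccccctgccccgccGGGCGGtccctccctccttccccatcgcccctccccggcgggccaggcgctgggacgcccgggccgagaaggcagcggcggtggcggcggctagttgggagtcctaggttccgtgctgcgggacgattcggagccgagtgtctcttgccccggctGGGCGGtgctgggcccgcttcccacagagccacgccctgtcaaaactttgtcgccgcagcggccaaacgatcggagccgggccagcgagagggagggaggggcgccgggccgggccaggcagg
Lef1, chr3:131110047-131110346, plus strand: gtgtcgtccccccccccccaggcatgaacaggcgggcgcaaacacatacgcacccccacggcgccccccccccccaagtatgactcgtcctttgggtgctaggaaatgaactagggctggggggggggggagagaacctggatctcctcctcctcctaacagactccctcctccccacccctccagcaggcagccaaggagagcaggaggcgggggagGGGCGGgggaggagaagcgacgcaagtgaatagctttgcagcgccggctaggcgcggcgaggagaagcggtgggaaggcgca
Fzd4, chr7:89404116-89404415, plus strand: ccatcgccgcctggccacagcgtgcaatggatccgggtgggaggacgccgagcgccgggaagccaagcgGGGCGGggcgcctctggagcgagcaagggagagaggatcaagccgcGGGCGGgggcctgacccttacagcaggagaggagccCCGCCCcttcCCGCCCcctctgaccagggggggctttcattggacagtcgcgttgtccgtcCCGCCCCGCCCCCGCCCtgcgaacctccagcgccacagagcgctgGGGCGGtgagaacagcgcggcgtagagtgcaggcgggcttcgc

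Searched on both strands with overlapping matches counted, GGGCGG matched 1 time in the window of Wls, 2 times in that of Tcf7l1, 1 time in that of Lef1 and 8 times in that of Fzd4. The letters occur in 35.7% of all 32851 promoter windows of this length. CTTTGA, 1 form of the core bound by Tcf and Lef factors, had 0 matches in each of the 4 windows and occurs in 16% of all windows. Other forms of that core were not counted. TGACG, the half-site of the cAMP response element, also had 0 matches in each and occurs in 20.8% of all windows. For Lef1, which had 4 windows in all, the counts are of the 1 printed window. Of the 62 genes, 39 had at least 1 window, and together they had 48. Among these 48 windows CTTTGA occurred in 5, TGACG in 7 and GGGCGG in 33. Counted by gene, the matches fell in 5, 6 and 28 of the 39. The share of G and C was 75.3% in the window of Tcf7l1, 72.7% in that of Fzd4, 67.3% in that of Lef1 and 58% in that of Wls. The median over all windows was 52.7%.

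The carrier gene Wls had the lowest log2FC of all 19937 genes. Its values were 7.23, 7.02 and 6.87 on the N arrays and 8.61, 8.56 and 8.51 on the K arrays. The groups were 1.27 apart at their nearest arrays, and the K arrays lay close together. The means were 7.04 ± 0.18 with N and 8.56 ± 0.05 with K (SD, n = 3 arrays each), a log2FC of -1.52 (standard error 0.13), or 2.87-fold higher with K. The adjusted p was 0.0228 from limma, and it was 0.0548 without N replicate 1, 0.0768 without N replicate 2, 0.0743 without K replicate 1 and 0.416 in the ordinary linear model, so the call was lost in each of these. Wls lies on chromosome 3 from 159839650 to 159938666 (GRCm38.p6). Wls was the 1 gene of the 62 that also met the rule of the study's positive set, a log2FC over 1 in size with an unadjusted P under 0.05, which 0.492% of all genes met.

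Porcn, which encodes the enzyme porcupine that lipidates the ligands before Wls takes them over, overlapped between groups. It had 7.22, 7.29 and 7.22 on the N arrays and 7.01, 6.95 and 7.26 on the K arrays, with a log2FC of 0.17 (95% interval from -0.12 to 0.46). Within an array, the value of Wls minus that of Porcn ran from -0.35 to 0.01 with N and from 1.25 to 1.61 with K. These differences show unequal change of the 2 clusters and are given without a test, as the pair was chosen after its values were seen.

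Of the 3 Tcf and Lef factor genes measured, Tcf7l1 passed over all genes, and Lef1 and Tcf7l2 did not. In each of the 3 every N array lay below every K array, as it did in 7.55% of all genes. Tcf7l1, which encodes the factor also called Tcf3, known mainly as a repressor of Wnt targets in stem cells, had 6.84, 6.67 and 6.85 with N against 7.84, 7.63 and 7.72 with K. The nearest N and K arrays were 0.78 apart. The log2FC of Tcf7l1 was -0.94 (standard error 0.12) with an adjusted p of 0.0392 from limma, and its fold was 1.92 in favour of K. The gene lies on chromosome 6 from 72626371 to 72789045. The adjusted p for Tcf7l1 was 0.0516 after quantile normalization and 0.0590 with each array centred on its median, and without any 1 array it lay between 0.0569 and 0.174.

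Lef1, a factor that activates Wnt targets with beta-catenin and is itself a target in many tissues, had 6.25, 6.34 and 6.27 with N and 6.81, 7.18 and 7.01 with K. The N arrays were tightly grouped and all lay below the K arrays. The log2FC was -0.71 (standard error 0.13, 95% interval from -1.01 to -0.41), and it did not pass over all genes (adjusted p = 0.122 from limma). Lef1 lies on chromosome 3 from 131110297 to 131224357. Its mean with N, 6.29, lay below 6.34, the median of all clusters. With no detection calls, whether the N arrays measured Lef1 above background is not known. Tcf7l2, which encodes the factor also called Tcf4, had 8.74, 8.82 and 8.54 with N and 8.96, 8.95 and 8.93 with K. The 3 K arrays of Tcf7l2 were almost level, and the nearest N array lay 0.11 below them. Its log2FC was -0.25 (95% interval from -0.53 to 0.03), with an adjusted p = 0.644 from limma. From N to K the within-array difference between Tcf7l1 and Tcf7l2 narrowed from -1.91 ± 0.23 to -1.22 ± 0.10, and that between Lef1 and Tcf7l2 from -2.41 ± 0.13 to -1.95 ± 0.19 (SD, n = 3 arrays each), again as a description.

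**Figure D1:**
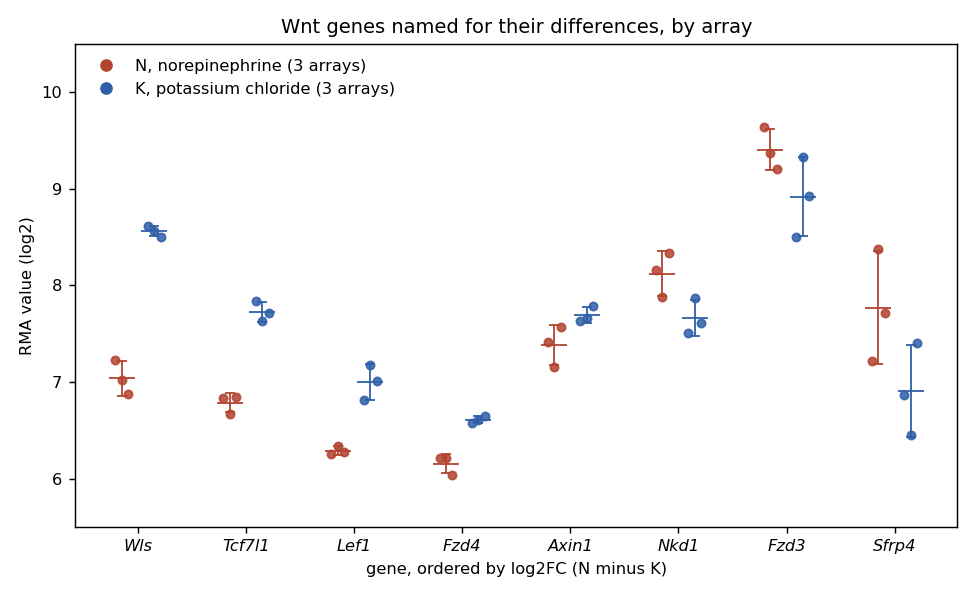
Log2 RMA values (vertical axis) of the genes with an unadjusted P under 0.05 or with groups that do not overlap and a log2FC over 0.3 in size, with N arrays (red, n = 3) and K arrays (blue, n = 3) as points and mean ± SD as bars. Wls shows the widest gap, 1.27 between its nearest arrays, while the arrays of Fzd3 and Sfrp4 overlap.

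None of the 12 receptor genes passed over all genes, and 6 were positive and 6 negative. Fzd4, which encodes the receptor for the vascular ligand norrin as well as for Wnts, had 6.21, 6.21 and 6.04 with N against 6.58, 6.61 and 6.64 with K. The groups lay 0.36 apart, and the log2FC was -0.46 (standard error 0.12, 95% interval from -0.72 to -0.19, adjusted p = 0.275 from limma). With N the mean of Fzd4 was 6.15, also below the median of all clusters, so the same limit applies. Fzd3, a receptor gene of axon guidance and planar polarity, had 9.64, 9.37 and 9.21 with N and 8.51, 9.32 and 8.92 with K. Here K replicate 2 lay inside the N range and K replicate 1 far below it. The log2FC of Fzd3 was 0.49 (standard error 0.21, adjusted p = 0.577 from limma), and it ranged from 0.28 without K replicate 1 to 0.69 without K replicate 2. Without the latter the adjusted p was 0.192.

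The other Frizzled genes had log2FC between the 0.26 of Fzd1 and the -0.24 of Fzd6. Fzd7 was higher on all N arrays by a margin of 0.03 (log2FC 0.25, 95% interval from -0.09 to 0.58). The co-receptor gene Lrp5 had 7.28, 7.04 and 7.14 with N and 7.31, 7.31 and 7.37 with K, a log2FC of -0.18, and its groups lay 0.03 apart. Lrp6 had 7.97, 7.78 and 8.21 with N and 7.74, 7.98 and 8.10 with K, and its arrays overlapped throughout (log2FC 0.05, 95% interval from -0.30 to 0.40). Fzd10os, which the rule takes in by its symbol, is a noncoding RNA named as the opposite-strand transcript of Fzd10 and no receptor. It had 6.995, 6.886 and 6.850 with N and 6.860, 6.533 and 6.776 with K, a log2FC of 0.19, and Fzd10 had one of 0.13.

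The 19 ligand genes showed no difference past the test, with log2FC from -0.25 for Wnt8b to 0.12 for Wnt16 and a lowest adjusted p of 0.718 from limma. Their 95% intervals ran from -0.60 at the lowest to 0.48 at the highest, so differences of that size lie within the intervals of single ligands. Wnt4, which signals in many developing epithelia, had 7.87, 7.85 and 7.62 with N and 7.82, 7.89 and 7.86 with K. It was the 1 gene of the 62 with a second cluster, whose means were 6.05 with N and 6.05 with K. Wnt9b had 6.997, 6.984 and 6.994 with N and 6.978, 6.844 and 7.112 with K, so its K arrays lay on both sides of the N arrays.

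Among the ligands best known in the brain, Wnt5a, the main ligand of the branch without beta-catenin, had 6.52, 6.58 and 6.59 with N and 6.65, 6.68 and 6.95 with K. Its N arrays all lay below the K arrays by 0.06, with a log2FC of -0.20 (95% interval from -0.49 to 0.09). Wnt3, Wnt7a and Wnt7b had log2FC of 0.11, -0.06 and 0.11. Wnt2 was also lower on all N arrays, by a margin of 0.004 only. In 9 of the 19 ligand genes the mean lay below 6.34, the median of all clusters, and the files hold no detection calls, so whether these clusters measured a transcript above background is not known.

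**Figure D2:**
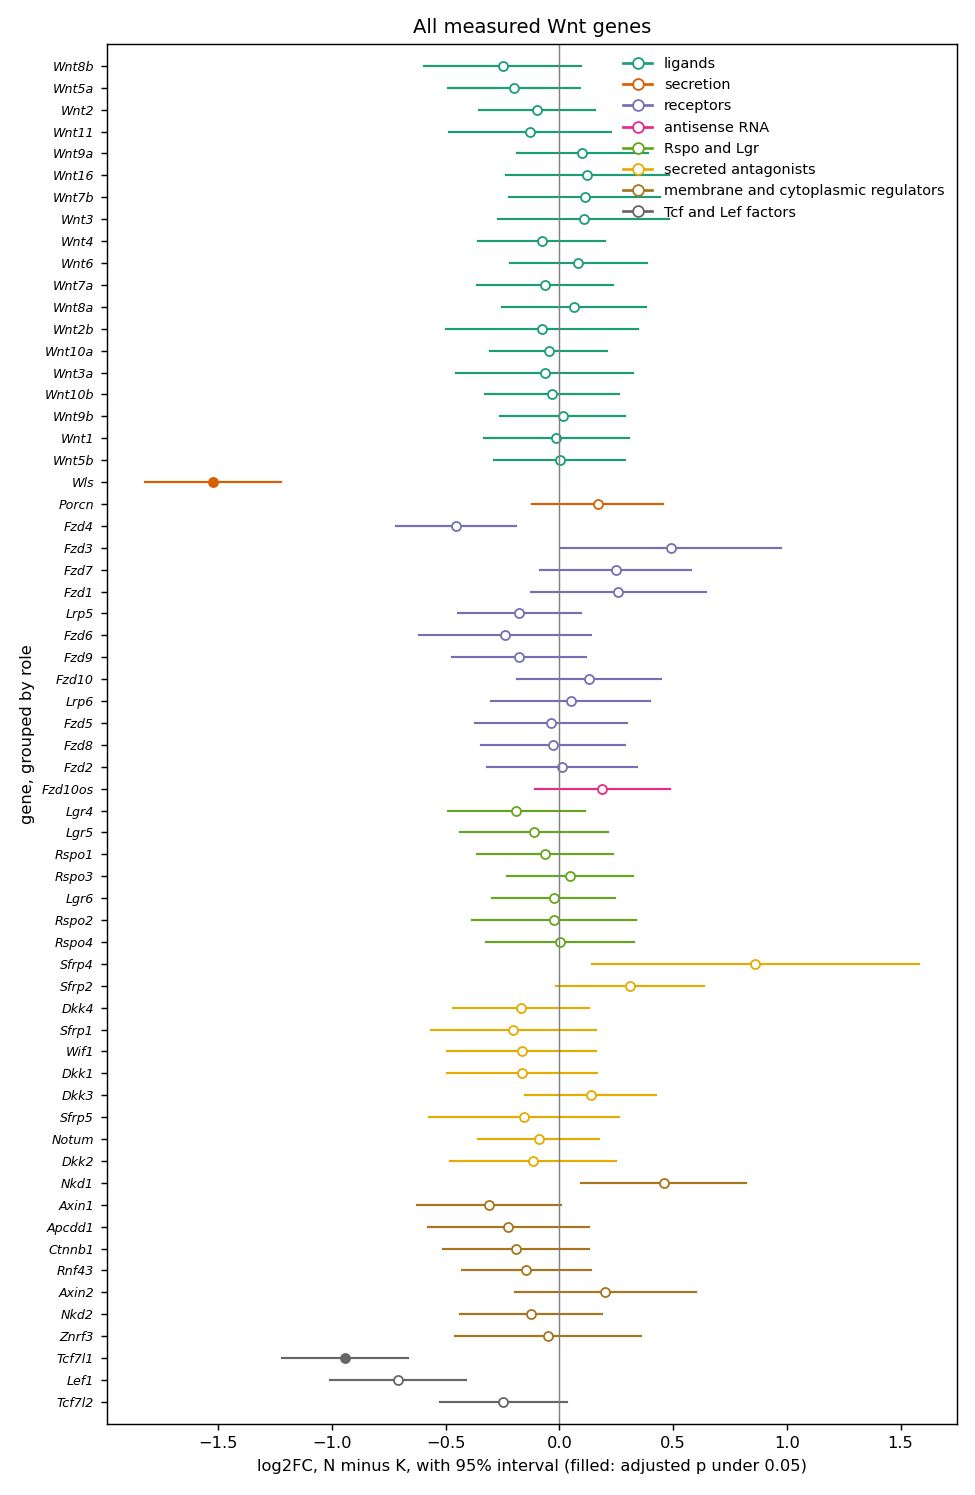
Log2FC (horizontal axis, N minus K, log2 scale) of all 62 genes with 95% intervals from limma, grouped by role, with filled points for an adjusted p under 0.05. Wls at -1.52 and Tcf7l1 at -0.94 are the filled points, and the 19 ligand genes lie between -0.25 and 0.12.

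The R-spondins, secreted proteins that strengthen Wnt signals, and their receptors Lgr4 to Lgr6 showed no difference past the test (lowest adjusted p = 0.769 from limma). All 7 had a log2FC under 0.25 in size, from -0.19 for Lgr4 to 0.05 for Rspo3. Rspo1 had 6.63, 6.63 and 6.63 with N and 6.73, 6.49 and 6.87 with K. Lgr6 had 6.24, 6.09 and 6.26 with N and 6.22, 6.14 and 6.30 with K. The means of 6 of the 7 genes lay below the median of all clusters.

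Of the 10 secreted antagonist genes 0 passed over all genes, and 7 were negative, where 11372 of 19937 genes were negative. The means of these 7 lay below the median of all clusters, so whether their clusters measured a transcript above background is not known. Sfrp4, which encodes a soluble protein that binds Wnts through a Frizzled-like domain, had 7.21, 8.38 and 7.71 with N and 6.87, 6.45 and 7.40 with K. The arrays overlapped and spread more widely than those of any other gene of the 62 (standard error 0.32). The log2FC of 0.86 had a 95% interval from 0.14 to 1.58 and an adjusted p = 0.498 from limma, and it was 0.55 without N replicate 2. Sfrp2, a relative, had 7.20, 7.52 and 7.61 with N and 7.07, 7.06 and 7.25 with K. Only N replicate 1 lay inside the K range, and the log2FC was 0.31 (95% interval from -0.01 to 0.64). Sfrp1 and Sfrp5 had -0.20 and -0.16. Dkk1, Dkk2 and Dkk4, whose proteins block Lrp5 and Lrp6, had log2FC from -0.17 to -0.12, and Dkk3, which does not act as a typical Lrp blocker, had 0.14. Wif1, a ligand-binding inhibitor, had -0.17, and Notum, the enzyme that removes the Wnt lipid, -0.09.

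Among the regulators in the membrane and cytoplasm 0 of 8 passed. Nkd1, a Dishevelled-binding inhibitor that Wnt signals induce, had 8.16, 7.88 and 8.33 with N and 7.51, 7.87 and 7.61 with K. N replicate 2 and K replicate 2 were level within 0.003, and the other arrays lay apart. The log2FC was 0.46 (standard error 0.16, 95% interval from 0.10 to 0.82, adjusted p = 0.472 from limma). Axin1, a scaffold of the complex that destroys beta-catenin, had 7.41, 7.16 and 7.57 with N and 7.64, 7.66 and 7.78 with K, a log2FC of -0.31 (95% interval from -0.63 to 0.01) with 0.06 between the groups. Without N replicate 2 the log2FC of Axin1 was -0.20. Its relative Axin2, the textbook feedback target of the pathway, overlapped between groups, at 7.92, 7.52 and 7.94 with N and 7.33, 7.85 and 7.60 with K. The log2FC of Axin2 was 0.20 (95% interval from -0.20 to 0.60).

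The gene for beta-catenin itself, Ctnnb1, had 9.14, 9.04 and 9.38 with N and 9.33, 9.55 and 9.26 with K, which overlapped (log2FC -0.19, 95% interval from -0.51 to 0.13). Beta-catenin is controlled mainly by protein stability, which the arrays do not measure. The feedback inhibitor genes Rnf43 and Znrf3, whose products remove Frizzled from the surface, had log2FC of -0.15 and -0.05, and Apcdd1, another membrane inhibitor, -0.22. Genes that Wnt signals commonly induce had log2FC of both signs, from the -0.71 of Lef1 to the 0.46 of Nkd1, and 0 of Lef1, Nkd1, Axin2, Notum, Rnf43, Znrf3, Apcdd1 and Lgr5 passed over all genes. These 8 were brought together after their values were seen.

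Of 76 further genes of the pathway, 1 passed over all genes, where 0.155% of all genes passed in either direction. Sulf1, a heparan sulfate 6-O-endosulfatase that frees Wnts from their cell-surface store, had 7.62, 7.24 and 7.44 with N and 6.31, 6.05 and 6.00 with K. The groups lay far apart, and Sulf1 was higher with N (log2FC 1.31, adjusted p = 0.0270 from limma), while its relative Sulf2 had -0.20. The list was chosen with earlier results of these data known, so the values of Sulf1 are given as a description. Without any 1 array the adjusted p of Sulf1 lay between 0.0569 and 0.124. At an unadjusted P under 0.05, 2 of the 76 were higher with N, Sulf1 and Id2 (log2FC 0.40), and 3 were lower, the kinase gene Csnk1d (-0.38), the corepressor gene Tle1 (-0.36) and Ctnnbip1 (-0.32), whose product keeps beta-catenin from Tcf factors. These counts of the 76 compare with 4.64% of all genes higher with N and 3.89% lower. None of the 15 co-receptor and planar polarity genes reached that threshold, with log2FC between -0.20 and 0.15. The median over the 76 genes was -0.02, and 60 of them had a log2FC under 0.25 in size. Among target genes Ccnd1 had 0.26 and Myc -0.01.

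**Figure D3:**
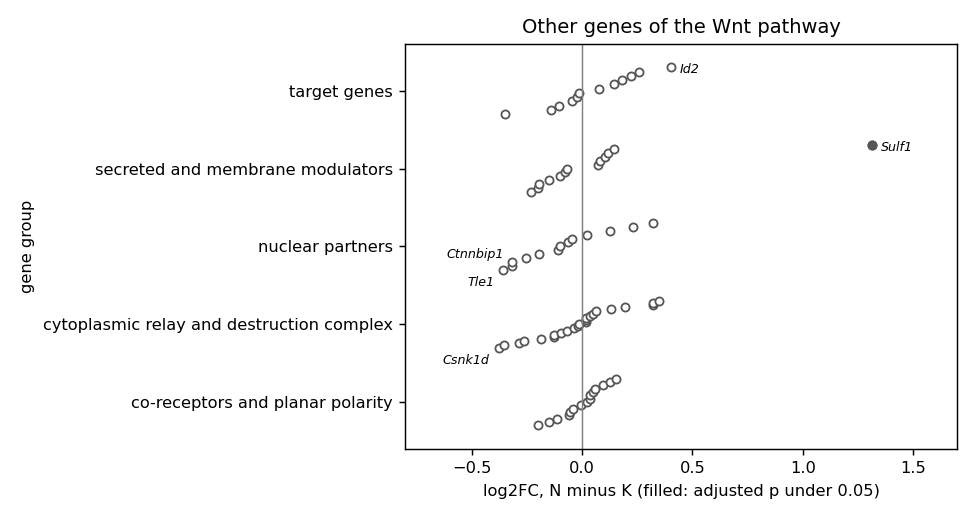
Log2FC (horizontal axis, N minus K, log2 scale) of the 76 further Wnt pathway genes by group, with filled points for an adjusted p under 0.05 and names for an unadjusted P under 0.05. Sulf1 at 1.31 is the filled point, and the other genes lie between -0.38 and 0.40.

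Neurospheres mix precursors with the cells they give rise to. In such bulk RNA, fewer cells of a type and less RNA per cell cannot be told apart. The marker lists were chosen with earlier results of these data known, so their counts are given as a description. Of the 8 astrocyte markers 7 were positive and S100b was negative (log2FC -0.47), with a median log2FC of 0.51. Gfap was the 1 past the test over all genes, where 24 of 19937 genes passed as higher with N. At an unadjusted P under 0.05, 5 were higher with N (Gfap, Aqp4, Slc1a2, Aldoc and Aldh1l1), against 4.64% of all genes. In 6 of the 8 the groups did not overlap, all higher with N, as in 1152 of 19937 genes. The mean over the 8 markers lay between 8.83 and 9.27 on the N arrays and between 8.35 and 8.44 on the K arrays. Choroid plexus epithelium and endothelium are cell types in which Wnt carrier or receptor genes are known to be expressed. All 8 choroid plexus markers were negative, with 0 past the test and a median log2FC of -0.12. Of all 19937 genes, 11372 were negative. Otx2 was the 1 choroid plexus marker at an unadjusted P under 0.05, where 3.89% of all genes were lower. The means over these 8 markers ran from 5.69 to 5.92 on the N arrays and from 5.85 to 5.97 on the K arrays. Of the 8 endothelial markers 7 were negative, with 0 past the test, a median of -0.05 and means from 5.52 to 5.64 with N and from 5.56 to 5.70 with K. The defining marker Ttr varied widely, with means of 6.40 ± 0.81 and 6.83 ± 1.11 on the N and K arrays, and Pecam1 had 5.95 ± 0.04 and 6.00 ± 0.08 (SD, n = 3 each). Of the 8 microglial markers 6 were negative (median -0.16), and of the 7 measured oligodendrocyte lineage markers 4 were negative (median -0.13), with 0 past the test in either list. For neurons, pericytes with meninges, and ependyma the medians were -0.08, 0.09 and -0.02, also with 0 past the test. At an unadjusted P under 0.05 they had 3, 1 and 1 genes, where 4.64% of all genes were higher and 3.89% lower. Among the neuronal markers these were Snap25 (log2FC 0.81) and Tubb3 (0.47), higher with N, and Map2 (-0.32), lower. Kcnj8 (0.37) of the pericyte and meningeal markers and Cfap126 (0.26) of the ependymal markers were higher. The mean over all arrays lay below 6.34, the median of all clusters, for 8 of 8 endothelial and 7 of 8 microglial markers. So it did for 6 of 8 choroid plexus, 6 of 8 neuronal, 5 of 8 ependymal and 4 of 8 pericyte and meningeal markers. With no detection calls, whether these clusters measured a transcript above background is not known. The part of cell makeup in the values of Wls, Tcf7l1, Lef1 and Fzd4 was not tested.

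The direction of Wls, Tcf7l1, Lef1, Fzd4, Nkd1, Fzd3 and Sfrp4 was kept in all 13 alternative fits, and the calls were not. Part of this was fixed in advance. The ordinary linear model, eBayes with trend and robust, dim genes left out, cluster means and the replicate term left these log2FC as reported. For Wls, Tcf7l1, Lef1, Fzd4 and Nkd1, whose groups did not overlap, leaving out 1 array could not reverse the sign. Wls passed in 9 of the 13 fits and Tcf7l1 in 4. In the 3 fits with 1 array left out that lost the call of Wls, 0 of all genes passed, where 1251, 1274 and 1334 were at an unadjusted P under 0.05. The log2FC of Wls stayed between -1.62 and -1.44 and that of Tcf7l1 between -0.99 and -0.89. Lef1 ranged from -0.80 to -0.62 and Fzd4 from -0.49 to -0.40, and both passed in 0 of the 13.

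**Figure D4:**
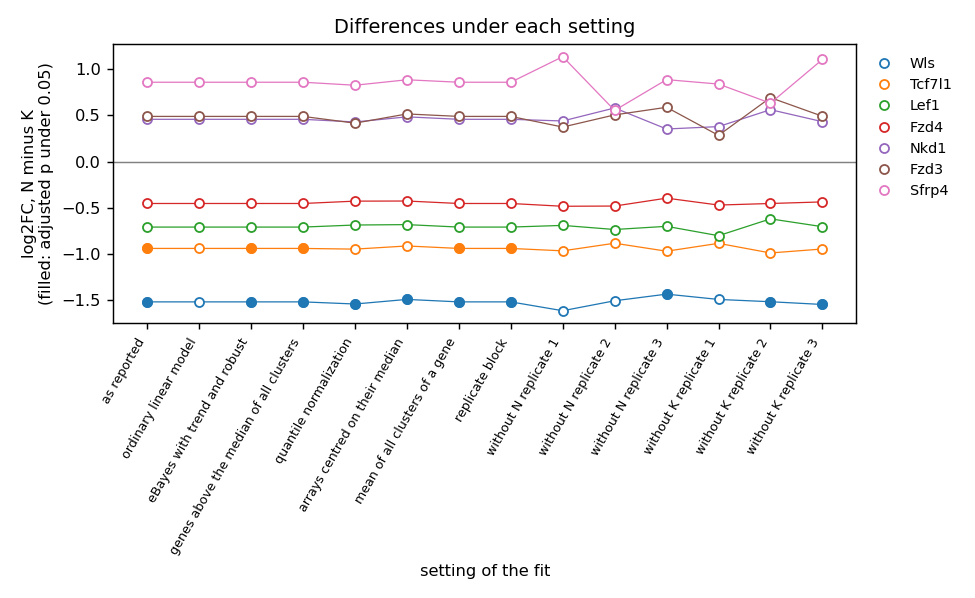
Log2FC (vertical axis, N minus K, log2 scale) of 7 genes in the fit as reported and in each alternative (horizontal axis), with filled points for an adjusted p under 0.05. Wls, Tcf7l1, Lef1 and Fzd4 lie below 0 and Nkd1, Fzd3 and Sfrp4 above 0 in each fit, and Sfrp4 moves most, between 0.55 and 1.14.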

How the data were processed

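RNA of 6 neurosphere cultures, 3 N and 3 K, was hybridised to Mouse Gene 1.0 ST arrays (Affymetrix). The deposited values are log2 values that the authors made with RMA in Partek Genomics Suite, per the labels; versions and settings are not given in the sources used here. Array annotation named the clusters: 21640 of 34760 carried exactly 1 symbol, and the cluster with the highest mean over the arrays stood for each of 19937 genes. All 62 members matched RefSeq (GRCm38.p6) by gene ID.

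N minus K was fitted over all genes with limma 3.58.1 in R 4.3.3 (lmFit, eBayes, no further terms; 4 residual and 4.59 prior degrees of freedom), with Benjamini-Hochberg adjustment over all genes and 95% intervals from the moderated standard errors. The fit was tested on simulated data. Summaries used Python 3.11.15 and figures matplotlib 3.10.9. Values per array are given for members with an unadjusted P under 0.05, for those with groups that do not overlap and a log2FC over 0.3 in size, and for the 2 brightest members of each role; other members shown per array (Wnt5a, Lrp5, Axin2) were chosen after their values were seen. The members, the list of further pathway genes (78 names, 76 measured, the 2 others being older symbols of listed genes) and the marker lists (72 names, 71 measured) were chosen with earlier results of these data known. Alternatives were an ordinary linear model, eBayes with trend and robust, dim genes left out, quantile normalization, median centring, cluster means, the replicate number as a term, each array left out and a 1.5-fold threshold. With 3 arrays per group, their number limits precision, and an exact permutation test of 1 gene cannot go below 0.1.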

Additional observations from a re-analysis of the deposited data

How the results depend on the processing

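The count of Wnt genes past an adjusted p under 0.05, 2 in the fit as reported, was 0 in the ordinary linear model (where 5 were at an unadjusted P under 0.05), 1 after quantile normalization and 1 with each array centred on its median, and it ranged from 0 to 1 when 1 array was left out. Leaving out N1, N2 or K1 (group and replicate) gave 0, with 6, 6 and 4 genes at an unadjusted P under 0.05. Leaving out N3, K2 or K3 gave 1, Wls each time. The log2FC of Wls was -1.52 in the ordinary linear model, where it did not pass (adjusted p = 0.416), and ranged from -1.62 to -1.44 with 1 array left out. The count at an unadjusted P under 0.05, 7 as reported, ranged from 4 without K replicate 1 to 8. The count past the rule of the positive set, 1 as reported, ranged from 1 to 2 with 1 array left out and was 4 with a threshold of 1.5-fold. The count among the further pathway genes, 1 as reported, was 0 in the ordinary linear model, 0 with each array centred on its median, and from 0 to 0 with any array left out. The median log2FC of the Wnt genes ranged from -0.08 to -0.04 with 1 array left out. The cause of these differences between settings was not tested.

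With the replicate number as a block the counts were 2 at an adjusted p and 7 at an unadjusted P under 0.05, as without it, and no call among the Wnt genes changed. Over all genes 41 passed an adjusted p under 0.05 with the block and 31 without it. Same-numbered N and K arrays correlated at 0.04, 0.04 and 0.12 in their deviations from the group means. The other pairs ran from -0.14 to 0.11, the highest being N replicate 1 with K replicate 2. The labels do not say whether the number pairs the arrays, and these values do not decide it.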
